A study of Drosophila melanogaster with 2 samples.

Results

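Divergent promoters are stretches of DNA from which a pair of genes is transcribed in opposite directions, away from each other. All 1995 pairs of different protein-coding genes whose starts lie on opposite strands, point apart and are 1 to 500 bp from each other were taken from the Ensembl annotation (release 115) of the fly genome, dm6. The pairs hold 3815 of the 13968 protein-coding genes on the 7 assembled arms. Where a gene has several annotated starts, the closest divergent starts define the pair, and because genes can share a start the 1995 gene pairs come down to 1875 distinct windows. A pair was called marked when the summit of a reproducible peak lay between the starts or within 250 bp outside them. The rule uses no measured value, so the marks themselves are the result.

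The peaks come from chromatin immunoprecipitation followed by sequencing (ChIP-seq) with an anti-GFP antibody on whole Drosophila melanogaster embryos of 0 to 24 h. The embryos carry tna fused to eGFP, and 2 biological replicates of this strain form the only group. Chromatin was fragmented by sonication to 200 to 800 bp, so a summit is placed less finely than the closest starts are spaced. No untagged or input control was analysed here, and embryos of all stages and tissues were mixed, so a mark cannot be given to a cell type.

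The tonalli gene (tna) encodes an SP-RING protein of the family of SUMO ligases that interacts genetically with the Brahma chromatin remodeller. Divergent promoters are common in the compact fly genome and often serve housekeeping genes, whose promoters tend to carry the DNA replication-related element (DRE) or Motif 1 rather than a TATA box. The DRE is bound by DREF, and the CGATA string inside it is the site of BEAF-32, a protein of domain boundaries known to sit between divergent genes, whereas Motif 1 is bound by M1BP.

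The sequences between the starts of the pairs on which the results turn are given first, read on the plus strand of the RefSeq dm6 assembly. The first base is the start of the minus-strand gene, which is named first, and the last base is the start of the plus-strand gene. Capitals mark the DRE, TATCGATA, where one lies between the starts, otherwise CGATA on either strand (CGATA or TATCG), and otherwise Motif 1, GGTCACAC or its complement GTGTGACC. The first set is shown because these are marked pairs with high signal or with a telling arrangement of motifs and summit.
Ube3a/CG7600 (chr3L:11210583-11210786): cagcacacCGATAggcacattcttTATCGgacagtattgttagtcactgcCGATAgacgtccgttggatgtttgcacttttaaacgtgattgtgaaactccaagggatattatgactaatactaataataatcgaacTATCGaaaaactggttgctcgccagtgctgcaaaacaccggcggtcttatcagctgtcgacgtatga
PRL-1/EndoGI (chr2L:16257606-16257688): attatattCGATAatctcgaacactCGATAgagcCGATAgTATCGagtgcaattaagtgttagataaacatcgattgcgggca
TrpRS/Vps16A (chr3R:9266904-9267019): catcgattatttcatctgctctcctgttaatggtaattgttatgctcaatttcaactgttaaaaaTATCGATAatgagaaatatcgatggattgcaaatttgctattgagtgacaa
CG3862/dock (chr2L:825861-825969): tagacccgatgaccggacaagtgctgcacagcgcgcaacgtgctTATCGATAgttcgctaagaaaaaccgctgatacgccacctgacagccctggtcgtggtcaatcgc
eIF2gamma/Set (chr3R:15263458-15263552): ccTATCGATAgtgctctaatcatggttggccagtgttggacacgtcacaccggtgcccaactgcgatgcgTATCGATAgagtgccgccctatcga
CG4553/MED28 (chr3R:25476915-25477003): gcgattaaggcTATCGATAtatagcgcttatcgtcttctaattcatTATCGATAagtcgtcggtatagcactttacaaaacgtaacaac
Rab30/Caper (chr2L:7032606-7032721): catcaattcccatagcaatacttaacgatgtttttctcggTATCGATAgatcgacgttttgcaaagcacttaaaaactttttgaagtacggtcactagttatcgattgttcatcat
janA/Sry-alpha (chr3R:30039533-30039719): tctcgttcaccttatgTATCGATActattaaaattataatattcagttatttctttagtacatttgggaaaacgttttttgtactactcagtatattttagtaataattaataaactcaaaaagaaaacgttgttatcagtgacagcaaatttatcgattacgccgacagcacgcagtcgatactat
mRpL39/Prosbeta2 (chr3L:14999666-14999951): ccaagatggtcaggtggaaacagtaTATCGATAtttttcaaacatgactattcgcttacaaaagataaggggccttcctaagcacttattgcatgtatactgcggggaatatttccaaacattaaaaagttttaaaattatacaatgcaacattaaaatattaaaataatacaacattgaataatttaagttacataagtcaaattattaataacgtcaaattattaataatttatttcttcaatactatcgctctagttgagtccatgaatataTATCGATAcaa
SmB/KdelR (chr2L:10426627-10426887): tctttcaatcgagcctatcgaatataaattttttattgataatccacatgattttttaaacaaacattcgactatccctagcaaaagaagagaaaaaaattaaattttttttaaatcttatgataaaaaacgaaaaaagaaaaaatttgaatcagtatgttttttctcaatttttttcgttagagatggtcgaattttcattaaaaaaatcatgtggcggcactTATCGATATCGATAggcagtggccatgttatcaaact
Taf10b/Taf10 (chr2L:2767845-2767890): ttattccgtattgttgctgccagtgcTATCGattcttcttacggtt
Ripalpha/RpL7 (chr2L:10200974-10201004): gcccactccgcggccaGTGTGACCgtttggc

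The second set is shown because these pairs had no summit in the list of reproducible peaks used here. The first 3 hold DREs in their windows all the same, and the others hold none.
Mrgn1/mus101 (chrX:13721977-13722246): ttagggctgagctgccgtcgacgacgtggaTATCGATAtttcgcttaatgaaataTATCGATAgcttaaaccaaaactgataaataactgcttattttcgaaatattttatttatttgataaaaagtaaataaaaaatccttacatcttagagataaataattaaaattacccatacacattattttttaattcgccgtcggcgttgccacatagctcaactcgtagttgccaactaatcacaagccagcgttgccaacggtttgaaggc
Pp4-19C/cactin (chrX:20424002-20424069): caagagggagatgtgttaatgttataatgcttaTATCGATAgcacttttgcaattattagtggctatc
CG3618/Pka-R1 (chr3L:20816075-20816118): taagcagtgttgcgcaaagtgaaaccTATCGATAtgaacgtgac
MED20/Trf (chr2L:8072848-8072895): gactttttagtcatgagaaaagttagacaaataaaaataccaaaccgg
Rpt4/mldr (chrX:6291245-6291303): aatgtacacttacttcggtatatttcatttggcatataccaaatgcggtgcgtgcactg
His4:CG33875/His3:CG33854 (chr2L:21520083-21520109): gtaggtagcaaatgctctgatcgttta

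Tagged Tna marked 658 of the 1995 divergent pairs, which is 33.0% (95% interval 30.9 to 35.1), and 610 of the 1875 windows (32.5%). Windows of the median pair length, 746 bp, laid upstream of the canonical start of every protein-coding gene held a summit in 16.0% of cases. At genes that belong to no pair, 1068 of 10153 such windows (10.5%, interval 9.93 to 11.1) did. A pair window is laid on 2 starts and these windows on 1, so the shares are not shares per start. The intervals here and below are exact (Clopper-Pearson) and cover counting error only. Pairs are not replicates of a condition, and 2 samples of 1 group allow no test across samples, so the differences are given as descriptions.

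Counted by gene, 1063 of the 3815 genes in pairs (27.9%) had a summit within 250 bp of a start of their own, against 15.9% of all protein-coding genes and 1160 of 10153 genes in no pair (11.4%). A summit between close starts counts for both genes. When each summit was given only to the gene of its nearest start, 708 genes of pairs (18.6%, interval 17.3 to 19.8) and 1152 genes in no pair (11.3%) had one, and 13.3% of all genes. The pair genes thus stayed above the others under the stricter count, by a smaller margin. Genes of pairs also have more annotated starts, which gives more chances of a summit. Among genes with 1 start the shares were 25.7% in pairs and 8.75% in no pair, among genes with 2 starts 31.0% and 16.3%, and among genes with 3 starts 34.5% (interval 28.3 to 41.2) and 22.8% (interval 19.1 to 26.9). Among genes with 4 or more starts they were 41.5% and 32.5%, where the intervals overlap (32.7 to 50.7 and 27.4 to 38.0). These shares by number of starts use the first count, in which a summit between close starts counts for both genes. The stricter count was not made by number of starts.

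Of all 2580 reproducible peaks, 671 (26.0%) had their summit in a divergent window. Among the 100 strongest peaks 28 did, and among the 25 strongest 9 did.

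**Figure D1:**
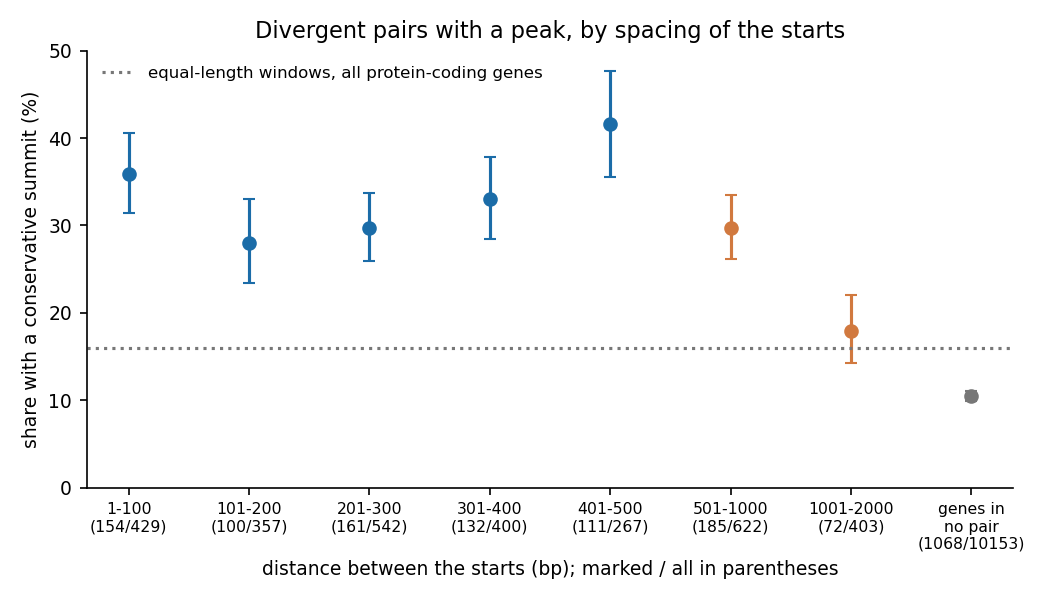
Share of divergent pairs with a reproducible summit (y axis, percent) against the distance between the starts (x axis, bp), with exact 95% intervals and counts under each point. Blue points are the pairs of 1 to 500 bp, orange points are wider divergent pairs with a summit within 250 bp of either start, the grey point is windows of equal length at genes in no pair, and the dotted line is the 16.0% of all protein-coding genes. The 5 blue points lie between 28.0% and 41.6%, all above the line.

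The mark did not fade as the starts moved apart within 500 bp. Of pairs spaced 1 to 100 bp, 154 of 429 (35.9%) were marked, of those at 101 to 200 bp 100 of 357 (28.0%), and of those at 201 to 300 bp 161 of 542 (29.7%). At 301 to 400 bp 132 of 400 (33.0%) were marked, and at 401 to 500 bp 111 of 267 (41.6%, interval 35.6 to 47.7). The widest bin had the highest share, but its interval overlaps that of the closest bin (31.4 to 40.6), and wider pairs also offer a longer window. Without the 42 pairs of replication-dependent histone genes, which fall mostly at 101 to 200 bp, that bin stood at 31.3%. The median spacing was 256 bp (interval 242 to 268) in marked and 242 bp (interval 233 to 250) in unmarked pairs, and 245 bp in unmarked pairs without the histone genes.

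The closest starts had a lower share, from few pairs. Of 47 pairs with starts 1 to 25 bp apart, 9 (19.1%, interval 9.15 to 33.3) were marked. This interval overlaps that of all pairs (30.9 to 35.1). It also overlaps those at 26 to 50 bp (45 of 134, 33.6%, interval 25.7 to 42.2) and 51 to 75 bp (48 of 131, 36.6%, interval 28.4 to 45.5). It does not overlap that at 76 to 100 bp (52 of 117, 44.4%, interval 35.3 to 53.9). Among unmarked pairs with starts 1 to 25 bp apart were Taz/mRpL18 and glo/COX5A, each with 20 bp between the starts. The gap at Taz/mRpL18 lies between a tafazzin gene and a mitochondrial ribosomal protein gene, and the replicate 1 list by itself held a summit there.

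Far beyond the 500 bp limit the share was lower. Divergent neighbours over 500 and up to 1000 bp apart had a summit within 250 bp of either start in 185 of 622 cases (29.7%, interval 26.2 to 33.5, which overlaps that of the pairs within 500 bp), and those over 1000 and up to 2000 bp apart in 72 of 403 (17.9%, interval 14.2 to 22.0). Within 500 bp this criterion covers the same bases as the rule used above, so the 658 marked pairs are the same by construction. Over 500 and up to 1000 bp both starts had a summit of their own in 19 of 622 pairs (3.05%). Just inside the limit, at 500 bp, Snap24/CG8478 was marked with a signal of 190, while Plzf/PLCXD and su(Hw)/Polr2I were not. Just outside, 1 bp wider, CG9853/CG14647, Meics/ssp2 and Meics/Nxf3 were not marked. At the edge of the 250 bp reach, the outermost counted summit lay 239 bp beyond the start of Cdc16 in the pair orb/Cdc16 (signal 108), and the nearest uncounted one lay 263 bp beyond a start of mRpS14/Naa15-16 (signal 194).

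Summits lay mostly between the starts. In 474 of the 658 marked pairs (72.0%, interval 68.4 to 75.4) the strongest summit was between them, and in 430 of the 610 windows (70.5%), whereas 32.6% of the bases of these windows lie there. The other summits lay inside the minus-strand gene in 96 windows and inside the plus-strand gene in 84. Marked genes in no pair had their summit upstream of or at the nearest start in 819 of 1160 cases (70.6%), about the same share at promoters of 1 direction. The measures differ in part. At genes in no pair the nearest of all the gene's own starts was used, and in pairs only the starts that define the pair. The median summit lay 27 bp upstream of the nearer start over all marked windows (interval 21 to 31) and 25 bp upstream in genes of no pair (interval 22 to 28). This near equality averages over spacings that differ. The median was 8.50 bp upstream in pairs spaced 1 to 100 bp (interval 5 to 13), 38.0 bp at 101 to 200 bp (interval 31 to 43) and 48.0 bp at 201 to 300 bp (interval 36 to 60), each outside the interval of genes in no pair. It was 34.0 bp at 301 to 400 bp (interval 21 to 47) and 11.0 bp at 401 to 500 bp (interval −5 to 32), where the intervals overlap that of genes in no pair. In narrow gaps the measure is bounded, since no summit between the starts can lie farther from the nearer one than the midpoint does.

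In wide gaps summits followed a start, not the centre of the gap. The median distance to the nearer start was 21.0 bp in pairs spaced 1 to 100 bp, 43.0 bp at 101 to 200 bp, 64.0 bp at 201 to 300 bp, 55.5 bp at 301 to 400 bp and 41.0 bp at 401 to 500 bp. The median distance to the midpoint rose over the same bins from 20.0 and 27.8 to 77.5, 139 and 224 bp. In windows spaced 201 to 500 bp, 291 of 370 summits (78.6%, interval 74.1 to 82.7) were within 100 bp of 1 start only and 79 (21.4%) were over 100 bp from both. In gaps little over 200 bp nearly every position is within 100 bp of a start, so spacing partly sets these shares. Between the starts, 173 of the 370 summits (46.8%, interval 41.6 to 52.0) lay nearer a start than the midpoint. In the stretch of equal length around the midpoint lay 82 (22.2%, interval 18.0 to 26.7). Up to 200 bp the typical summit was as near the midpoint as a start or nearer. At 201 to 300 bp the medians to the nearer start and to the midpoint were still close (64.0 and 77.5 bp). Above 300 bp they were far apart, and the points split into a branch at each start.

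**Figure D2:**
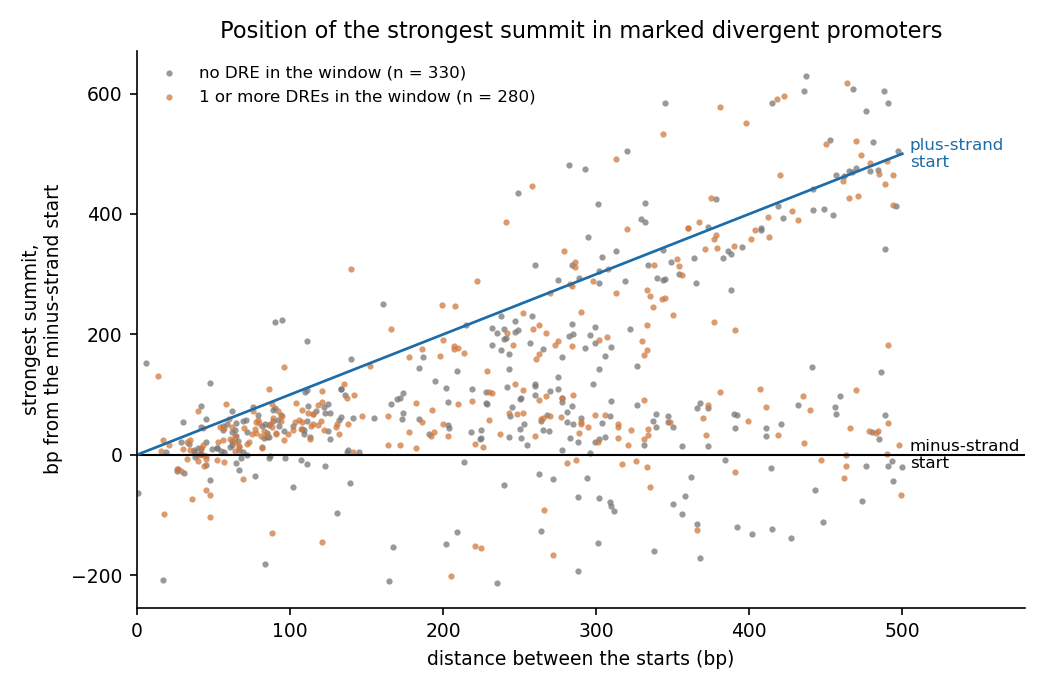
Position of the strongest summit (y axis, bp from the minus-strand start, positive towards the plus-strand start) against the distance between the starts (x axis, bp) in the 610 marked windows. The black line is the minus-strand start and the blue line the plus-strand start, and orange points have a DRE in the window (280) and grey points none (330). Below about 200 bp the points fill the gap, and above about 300 bp they gather along both lines.

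The side on which the summit lay was only weakly tied to the genes. The minus-strand start was nearer in 330 of 608 windows without a tie (54.3%, interval 50.2 to 58.3). In windows spaced 201 to 500 bp the longer gene was nearer in 222 of 370 cases (60.0%, interval 54.8 to 65.0), and the gene with more annotated transcripts in 162 of 266 (60.9%, interval 54.8 to 66.8). In windows of this spacing with a single DRE, the summit was nearest the same start as the DRE in 92 of 131 (70.2%, interval 61.6 to 77.9). The summit position itself differed between the replicates' own lists, where 76.2% (replicate 1) and 63.7% (replicate 2) of the strongest summits lay between the starts.

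A second reproducible summit was present in 61 of 610 windows, in 5.56% of those spaced 1 to 100 bp and in 19.4% of those spaced 401 to 500 bp. Wider pairs have longer windows, and the 2 strongest summits of a window were never closer than 199 bp, so the rise is not read further. In 34 of the 61 windows the 2 strongest summits were nearest different starts. In 38 of the 61, however, both listed peaks were paired to the same peak in each replicate, and their median separation of 207 bp varied little (quartiles 202 and 239 bp), so most are not separately measured. At shtd/CG6294, where shtd encodes a subunit of the anaphase-promoting complex, summits of signal 734 and 127 lay 71 bp from the shtd start and 2 bp from the CG6294 start and shared their replicate peaks. SmB/KdelR is a case with separate peaks in both replicates. There the summit 32 bp from the start of SmB, a gene of the spliceosomal Sm core, had a signal of 274 (208 in replicate 1 and 81.5 in replicate 2), and the summit 28 bp from the start of KdelR, the receptor that retrieves proteins to the endoplasmic reticulum, had 226 (77.4 and 96.6). The replicates thus ordered the 2 summits of this promoter differently. RpL36/Mybbp1A was arranged alike, with a signal of 300 at 54 bp from the start of the ribosomal protein gene and 207 at 35 bp from the start of the Myb-binding protein gene.

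Signal here means the value that the peak caller gave each peak, in its own units, and it is compared only within a list. The strongest peaks of the marked pairs had a median signal of 205 (interval 194 to 216, quartiles 147 and 303, range 11.1 to 1797) in the reproducible list. Taking the strongest peak of each pair raises this value, so peaks elsewhere are set against all 671 peaks in pair windows, whose median was 192 (interval 181 to 203). Peaks within 250 bp of other protein-coding starts had a median of 177 (interval 171 to 183), where the intervals overlap, and the remaining peaks 137 (interval 133 to 144). In the single lists the 671 peaks had a median of 109 in replicate 1 (interval 104 to 116) and 94.1 in replicate 2 (interval 90.1 to 98.8). The other promoter peaks had 90.9 (interval 85.6 to 95.7) and 98.8 (interval 96.0 to 103), so the intervals of both classes are apart in replicate 1 and overlap in replicate 2. By spacing the medians of the strongest peaks were 215, 219 and 226 in the 3 bins up to 300 bp and 175 and 192 in the bins above. The intervals at 201 to 300 bp (201 to 255) and at 301 to 400 bp (152 to 198) do not overlap, while those of the outermost bins do (183 to 260 and 159 to 214).

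The pair with the strongest peak of the whole list was Ube3a/CG7600 (FBgn0061469 and FBgn0064766), whose gap of 203 bp is printed above. Its signal was 1797 in the reproducible list, 836 in replicate 1 and 963 in replicate 2. The summit lay 49 bp upstream of Ube3a, a ubiquitin ligase gene, beside the CGATA that begins at base 51, 1 of the 4 between the starts, and no DRE lies in the window. Rpn6/ave (FBgn0028689 and FBgn0050476, 250 bp apart) followed at 1129, with 673 in replicate 1 and 482 in replicate 2. Rpn6 encodes a subunit of the proteasome lid and ave a scaffold of Ras signalling, and the summit lay 92 bp from Rpn6. Its window held 9 CGATA strings and no DRE.

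TAF1C-like/MESK2 had a signal of 1078 (679 and 392), with the summit 80 bp from MESK2. RpL32/CG7943 had 961 (555 and 406), with the summit 65 bp from RpL32, a gene of the large ribosomal subunit. Neither held a DRE. hts/CalpA, an adducin gene beside a calpain protease gene, had 893 (454 and 424) and 1 DRE.

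PRL-1/EndoGI is a compact example. Its starts, of a phosphatase gene and a gene for an inhibitor of endonuclease G, are 82 bp apart, and 4 CGATA strings lie within the first 45 bases printed above. The signal was 865 (471 and 383), and the summit was 34 bp from EndoGI. CG15443/Paris had 840 (412 and 444) and Sec61alpha/Daxx, the translocon channel gene beside a histone chaperone gene, had 820 (431 and 401) with the summit 53 bp from Daxx. GstO1/foi, with foi encoding a zinc transporter, had 732 (385 and 357) with 2 DREs and the summit 13 bp from foi.

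Below these came Irp-1B/Rrp46, an iron regulatory protein gene beside an exosome gene, with 719 (358 and 315), and fy/emb, a planar polarity gene beside the exportin gene, with 712 (390 and 290). Prosalpha7/CG1671 had 707 (408 and 298) and kz/fs(1)K10, a helicase gene beside a gene of oocyte polarity, had 706 (402 and 345). HLH4C/mRpL30 had 689 (330 and 346), with the summit 8 bp inside mRpL30, a mitochondrial ribosomal protein gene, and 465 bp from HLH4C, which encodes a basic helix-loop-helix factor. CG15356/CG15362 had 624 (409 and 217). Zdhhc8/BCL7-like, a palmitoyltransferase gene beside a gene of the BCL7 family, had 603 (342 and 261), and Cul4/udd, a cullin gene beside a gene of ribosomal DNA transcription, had 600 (270 and 324).

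Among pairs with a DRE between the starts, some had the summit in or close to the motif. In TrpRS/Vps16A, a tryptophanyl-tRNA synthetase gene beside a vesicle tethering gene, the starts are 115 bp apart, the DRE begins at base 66 and the summit lay 68 bp from the first base. The signal was 706 (377 and 332). In CG3862/dock, where dock encodes an SH2/SH3 adaptor of axon guidance, the DRE begins at base 45 and the summit lay 54 bp from each start, with a signal of 695 (338 and 355). eIF2gamma and Su(var)3-9, a translation factor gene and the gene of a histone H3 methyltransferase, share a start that lies opposite that of Set, a histone chaperone gene, at 94 bp. DREs begin at base 3 and base 71, a further one lies outside the gap, and the summit lay 57 bp from the first base, ahead of the second DRE, with a signal of 610 (348 and 259). In Rab30/Caper the DRE begins at base 41 and the summit lay farther from it, 68 bp from the Rab30 start, with a signal of 516 (277 and 245).

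Other pairs separate the DRE and the summit more widely. In janA/Sry-alpha the only DRE begins at base 17, beside janA, while the summit lay 175 bp from janA and 11 bp from Sry-alpha, a gene of blastoderm cellularisation, with a signal of 633 (429 and 202). This gap holds 4 CGATA strings, counting both strands. Those outside the DRE are left in lower case above and lie near Sry-alpha, on the side of the summit. In mRpL39/Prosbeta2, between a mitochondrial ribosomal protein gene and a proteasome core gene, a DRE stands at each end, at base 26 and base 276, and the summit lay 100 bp from mRpL39 with a signal of 220 (188 and 75.1). In SmB/KdelR 2 overlapping DREs at base 225 and base 231 stand beside KdelR, where the weaker of its summits lay.

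The gap between CG3281 and aurA, the gene of the mitotic kinase Aurora A, lies in the scs' region of 87A, one of the first boundary elements described in flies and the one from which BEAF-32 is known. It was marked with a signal of 205, equal to the median of all marked pairs, with 137 in replicate 1 and 85.3 in replicate 2. The starts are 319 bp apart, the summit lay 31 bp from aurA, and the window held 8 CGATA strings and no DRE.

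Most marked pairs had a summit in each replicate's own list, and pairs were somewhat more prominent in replicate 1. Of the 658 marked pairs, 431 (65.5%) had a summit in the thresholded list of each replicate, 118 in replicate 1 alone, 54 in replicate 2 alone and 55 in neither. The marks rest on peaks kept for being reproducible, so this share does not measure how far the replicates agree. Across all 1995 pairs, marked or not, 437 held summits from each replicate. A further 209 held a summit only from replicate 1, and 122 only from replicate 2. Taken by itself, the replicate 1 list marked 646 pairs (32.4%) and the replicate 2 list 559 (28.0%), while windows of equal length at all genes were marked in 14.7% and 15.5% and at genes in no pair in 8.76% and 11.4%. Of the replicate 1 peaks, 657 of 2214 (29.7%) fell in pair windows, and of the replicate 2 peaks 593 of 2669 (22.2%, interval 20.7 to 23.8). The pair windows thus took a larger share of the peaks of replicate 1, and this goes with a longer list in replicate 2. Depth is unknown for both libraries, so whether it plays a part was not tested.

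The paired values differed between classes of peak in the same way. The strongest peak of a pair was higher in replicate 2 than in replicate 1 in 242 of 606 cases (39.9%, interval 36.0 to 44.0), against 730 of 1284 other promoter peaks (56.9%) and 381 of 615 peaks away from starts (62.0%). The median log2 of replicate 2 over replicate 1 was −0.139 in pairs, 0.0855 at other promoters and 0.0523 over all reproducible peaks. Since no common scale is stated for the 2 lists, only the difference between classes can be read, not the sign. Over all peaks in pair windows the share was 39.9% as well (267 of 670). The share was alike in pairs with a DRE within 100 bp of the summit (40.7%) and without (39.5%), while at other promoters it was 45.3% with and 61.0% without.

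The ratio between the lists varied widely between pairs. At one end Mic26-27/CG5916 had 354 in replicate 1 and 86.9 in replicate 2, Unc50/CG8043 had 210 and 56.8, and EMC1/Taf7 had 183 and 52.0. At the other end Wdr37/koko had 45.1 and 137, Swip-1/EMC5 42.8 and 107, and Orc3/FLASH 46.1 and 111. These 6 pairs were named after their values were seen, as the ends of the range, and 5 of them had a summit in 1 of the single lists only.

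**Figure D3:**
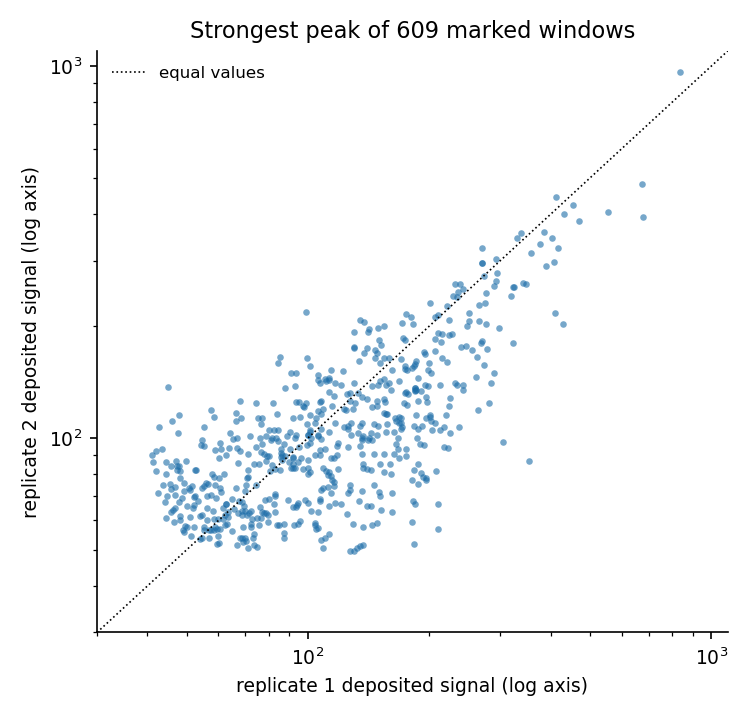
Deposited signal of the strongest peak of each marked window with a value in both replicates (609 windows), replicate 1 on the x axis and replicate 2 on the y axis, both log axes in the caller's own units. The dotted line marks equal values, and Ube3a/CG7600 is the point at the upper right with 836 and 963. The lists have no stated common scale, so the side of the line on which a point lies is not read, and the scatter widens towards low signal.

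Divergent windows were richer in the DRE than windows at other genes, and the DRE went with the mark in both. A DRE on either strand (the motif is its own complement) was present in 280 of 610 marked pair windows (45.9%, interval 41.9 to 49.9) and in 157 of 1265 unmarked ones (12.4%, interval 10.6 to 14.4). In windows of equal length at genes in no pair the shares were 34.8% of marked and 4.38% of unmarked windows, and 11.6% of the windows of all genes held one. The match counts letters only and does not show that a factor was bound.

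At the same number of DREs, pair windows were still marked more often than windows at other genes. Pair windows are laid on 2 starts and the others on 1, so this does not compare single starts. Without a DRE, 330 of 1438 pair windows (22.9%, interval 20.8 to 25.2) and 696 of 9383 other windows (7.42%, interval 6.90 to 7.97) were marked. With 1 DRE the shares were 61.5% (232 of 377) and 45.8% (310 of 677), and with 2 they were 78.6% (44 of 56) and 64.6% (53 of 82), where the intervals overlap (65.6 to 88.4 and 53.3 to 74.9). With 3 or more DREs 4 of 4 pair windows and 9 of 11 others were marked, too few to compare. From none to 2 DREs the share was higher with each added DRE in both kinds of window.

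**Figure D4:**
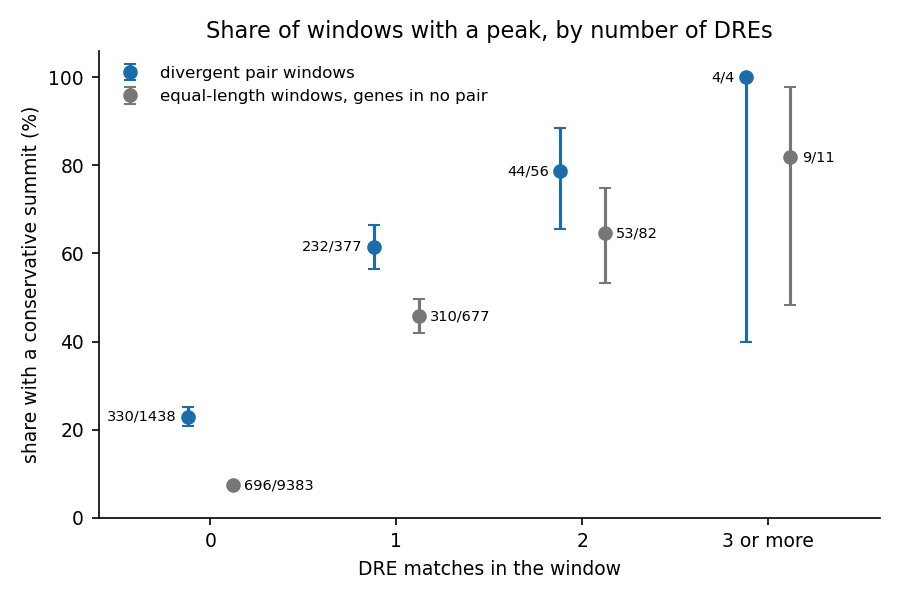
Share of windows with a reproducible summit (y axis, percent) by the number of DRE matches in the window (x axis), for divergent pairs (blue) and windows of equal length at genes in no pair (grey), with exact 95% intervals and counts beside the points. The blue points run from 22.9% without a DRE to 78.6% with 2, above the grey points at each number.

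The DREs of pair windows lay between the starts as often in unmarked as in marked windows. Of 333 DREs in marked windows 233 (70.0%) and of 169 in unmarked windows 118 (69.8%) were wholly between the starts. They were centred a median of 20.5 bp and 16.5 bp upstream of the nearer start. The nearest DRE was centred a median of 32.0 bp from the strongest summit (interval 26.5 to 41.5). Within 100 bp of the summit a DRE was found in 226 of 658 marked pairs (34.3%, interval 30.7 to 38.1), in 33.2% of all 671 summits in pair windows (interval 29.7 to 36.9), in 26.4% of other promoter summits (interval 24.0 to 28.9) and in 23.4% of all summits. The median signal was 217 (interval 197 to 236) in marked windows that hold a DRE and 199 (interval 182 to 213) in those that hold none, a difference within the overlap of the intervals. The signal of marked pairs was therefore about as high without the DRE, as in Ube3a/CG7600 and Rpn6/ave.

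Nearly all marked divergent windows held CGATA, the shorter string that every DRE contains. It was present in 589 of 610 marked windows (96.6%) and 920 of 1265 unmarked ones (72.7%), against 70.9% of the windows of all genes, and within 100 bp of the summit in 87.1% of marked pairs, 83.3% of all 671 summits in pair windows and 72.0% of other promoter summits. Of the pair windows without CGATA, 21 of 366 (5.74%, interval 3.59 to 8.64) were marked, against 589 of 1509 (39.0%) with it. Pcf11/Cyp6a22, a gene of transcript cleavage beside a cytochrome P450 gene, is among the 21, with a signal of 397 (227 and 190).

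Motif 1 was less frequent in marked than in unmarked pair windows, while the reverse held at other genes, a contrast that was not tested. It was present in 101 of 610 marked pair windows (16.6%, interval 13.7 to 19.7) and in 307 of 1265 unmarked ones (24.3%, interval 21.9 to 26.7). At genes in no pair it was present in 11.0% of marked and 5.65% of unmarked windows, and in 10.1% of all. Pair windows with Motif 1 were marked in 24.8% of cases and those without in 34.7%, whereas the shares at genes in no pair were 18.7% and 9.98%. Both the DRE and Motif 1 were found in 43 of the 610 marked windows (7.05%). In marked windows 78 of 108 Motif 1 matches (72.2%, interval 62.8 to 80.4) read GGTCACAC along the transcription of the nearer gene. Ripalpha/RpL7, of which the 31 bases from start to start are printed above, holds 1 Motif 1 match, which reads the other way, GTGTGACC, along the nearer gene RpL7. It holds no DRE and had a signal of 367 (174 and 184) with the summit 24 bp inside RpL7.

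The TATA string was also less frequent in marked (60.3%, interval 56.3 to 64.2) than in unmarked pair windows (67.9%, interval 65.3 to 70.5). Without the histone pairs the unmarked share was 66.9% (interval 64.2 to 69.5), where the intervals meet. Of all windows 69.0% held the string. At genes in no pair the reverse held, which was not tested, with 74.1% (interval 71.3 to 76.7) and 69.6% (interval 68.6 to 70.5). For the other strings the intervals of marked and unmarked pair windows overlap. The Initiator string was found in 70.3% and 74.3% (77.5% of all), the E-box CACGTG in 12.3% and 10.8% (9.69% of all), and GAGAG in 46.1% and 51.0% (55.4% of all). Of the marked windows, 16 of 610 (2.62%) held none of DRE, CGATA and Motif 1. The same count was not made for unmarked or for all windows, so this share has no comparison.

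Unmarked pairs were not free of signal. A peak of the ranked list, which holds all peaks before the reproducibility threshold, had its summit in 1026 of the 1337 unmarked pair windows, with a median signal of 61.9 (interval 59.4 to 65.1). In 8 pairs it reached 205, the median of the marked. The strongest were Pop4/nmo, with nmo encoding the kinase Nemo, at 560, mRpL47/CG8176 and mRpL47/Kdm3 at 367, and Dph4/RpL13A and Spec2/RpL13A at 333. These 5 were named after their values were seen. Their −log10 of the irreproducible discovery rate (IDR) were 3.53 or more, past the value of 2 that the listed peaks meet, but they are not in the thresholded list, and the reason is not given in the sources used here. In all, 10 unmarked pairs were of this kind, among them CG3618/Pka-R1, with 2 DREs and a ranked signal of 195 (−log10 IDR 3.09).

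Other pairs fell short on reproducibility. mRpL20/Icmt and Nak/Tango6 had summits in both single lists and ranked signals of 249 and 243, with −log10 IDR values of 1.95 and 0.15. Pp4-19C/cactin, a phosphatase gene beside a gene of the Toll pathway, holds 2 DREs and had a ranked signal of 167 (−log10 IDR 1.12) and a summit in the replicate 1 list only. Mrgn1/mus101, with 2 DREs that begin at base 31 and base 56, had a ranked signal of 76.6. The other unmarked pairs with 2 DREs named by the rule, Ostgamma/Mettl14, CG9302/beta'COP, LSm7/BuGZ, CG2310/Diedel and CG8188/par-6, had ranked signals from 66.0 to 86.6.

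The gene lists were small, and the exact intervals of 14 of the 16 include the 33.0% of all divergent pairs, so their counts are given as descriptions only. Of pairs with a Rab GTPase gene, the regulators of vesicle traffic, 10 of 14 were marked, led by Rab30/Caper, Rab21/Coa7 at 358 (212 and 139), Mob4/Rab2 at 311 (147 and 164) and l(2)34Fd/Rab14 at 306 (175 and 133). Their interval, 41.9 to 91.6%, lies above that share, but it is 1 of 16 lists looked at and no list was tested. In 4 of the 10 marked Rab pairs the summit was nearer the Rab gene. Rab5/Axud1 was unmarked with a ranked −log10 IDR of 1.99, just short of the threshold. The Rab list was matched by symbol and includes Rab3GAP1, a regulator of Rab proteins, whose pair was unmarked.

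Pairs with a spliceosome or Sm/LSm gene were marked in 11 of 22 cases (interval 28.2 to 71.8%), led by SmE/CG34132 at 462 (265 and 228), and pairs with a Mediator gene in 8 of 17 (interval 23.0 to 72.2%). The Mediator pairs were led by Nup75/MED9 at 561 (270 and 296) and MED7/Cap-H2 at 366 (234 and 139). CG4553/MED28 holds DREs at base 12 and base 47 and had 233 (108 and 126), with the summit 3 bp from MED28. MED20/Trf and PDCD-5/MED10, with starts 47 and 46 bp apart and no CGATA in the window, were unmarked.

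Cytosolic ribosomal protein pairs were marked in 16 of 38 cases (interval 26.3 to 59.2%), the summit being nearer the ribosomal protein gene in 10 of the 16. Mitochondrial ribosomal protein pairs were marked in 14 of 54 (25.9%, interval 15.0 to 39.7), and the summit was nearer the list gene in 6 of the 14. Proteasome pairs were marked in 10 of 25 (interval 21.1 to 61.3%), led by Rpn6/ave and Prosalpha7/CG1671, while Rpt2/CG13599 and Rpt4/mldr, with ATPase genes of the proteasome base, were unmarked. Pairs with an oxidative phosphorylation gene were marked in 14 of 40 (interval 20.6 to 51.7%), among them COX7A/Arl2 at 361 (221 and 160) and COX6B/CG33932 at 319 (174 and 156).

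Translation factor pairs were marked in 8 of 21 cases (interval 18.1 to 61.6%), and in none of the 8 was the summit nearer the factor gene. In eIF3a/CG1074 it lay 25 bp from CG1074 with a signal of 444 (221 and 226), in eIF4E6/CG1951 16 bp from CG1951 with 402 (239 and 176), and in eIF2Balpha/Vps13B 13 bp from Vps13B with 355 (154 and 200). The starts of these pairs are 62 to 90 bp apart, so there the nearer start is poorly resolved. Wider pairs of the list are named here for their spacing. In Patronin/eIF3b, with starts 347 bp apart, the summit lay 55 bp from Patronin and 292 bp from eIF3b. In RpL28/eIF1, with starts 381 bp apart, it lay 105 bp from RpL28 and 276 bp from eIF1. Aminoacyl-tRNA synthetase pairs were marked in 9 of 24 (interval 18.8 to 59.4%), nuclear pore pairs in 5 of 15 (interval 11.8 to 61.6%), and pairs with a polymerase II or general factor gene in 9 of 23 (interval 19.7 to 61.5%). The last include Taf10b/Taf10, a pair of paralogues of the TFIID and SAGA complexes that stand back to back over 45 bp, with a signal of 240 (133 and 132). PolG2 and GatC share a start opposite that of Polr2C, an RNA polymerase II subunit gene, and this promoter had 337 (184 and 158).

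Pairs of genes known for restricted or induced expression were few. Of chemoreceptor pairs 3 of 15 were marked (interval 4.33 to 48.1%), and in none was the summit nearer the receptor gene. At LSm-4/Ir31a and CG17768/Ir31a, which share a window, it lay 37 bp inside the LSm-4 and CG17768 side with a signal of 132 (42.0 and 92.0), and at Ir60e/CG13585 113 bp from CG13585 with 112 (67.1 and 62.7). Cytochrome P450 pairs were marked in 1 of 5 cases, cuticle protein pairs in 1 of 2 and heat shock pairs in 2 of 5, too few to set against the 33.0% of all pairs. The marked heat shock pairs were CG14965/Hsp83, with the summit 40 bp from CG14965, and Hsc70-5/CG8531, whereas Hsp67Bc/Hsp22 was unmarked.

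None of the 42 divergent pairs of replication-dependent histone genes was marked, and the exact interval reaches up to 8.41%. No ranked peak lay in the windows of His4:CG33875/His3:CG33854 and His4:CG33873/His3:CG33857 either. These pairs are near-identical copies in 1 cluster, reads from which may be shared between copies or left out by the authors' mapping, so the value is uncertain.

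**Figure D5:**
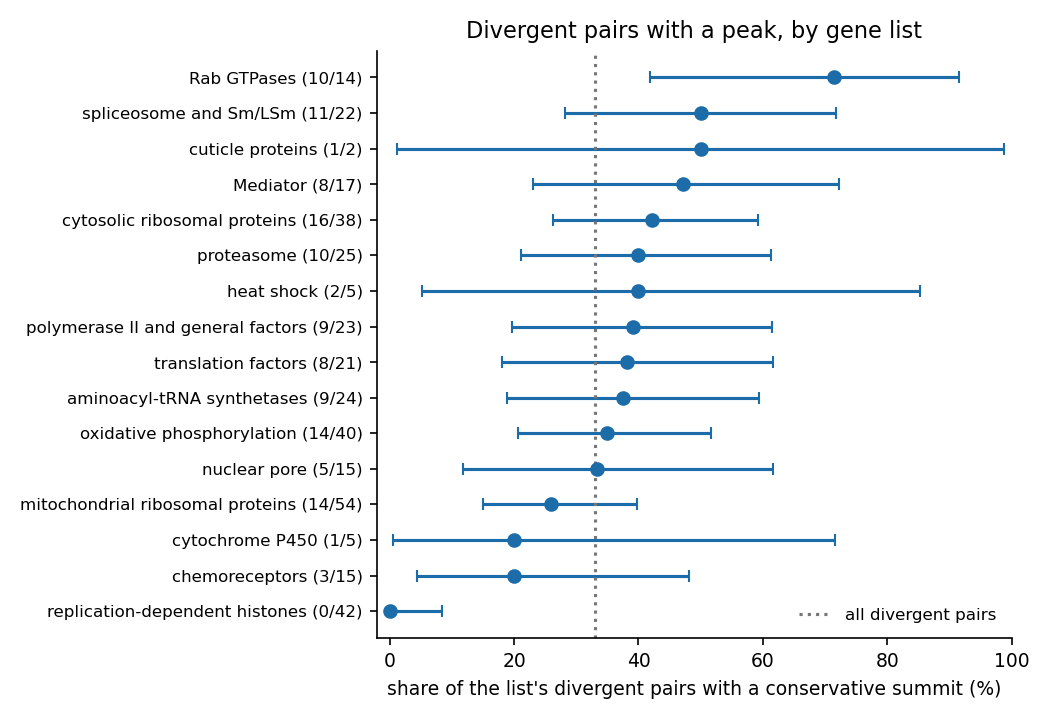
Share of divergent pairs with a reproducible summit (x axis, percent) for each of 16 gene lists (y axis), with exact 95% intervals and the counts of marked and all pairs in parentheses. The dotted line is the 33.0% of all divergent pairs. Rab GTPase pairs (10 of 14) lie highest and replication-dependent histone pairs (0 of 42) lowest, and the other 14 intervals include the line.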

How the data were processed

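Peak lists on the dm6 build, deposited by the authors, were used as given. Per the file headers and the labels, a ranked and a thresholded list come from each replicate and from both together. Neither the aligner nor the peak caller is given in the sources used here. Each deposited peak has a signal value of the caller, a −log10 of the q-value (thresholded lists) and a −log10 of the IDR (ranked lists). No common scale of lists is stated, and read counts are not part of them, so depth is unknown. The list of peaks reproducible between replicates, with 2580 peaks on the arms, was the main one. Of these, 2574 and 2575 were joined by coordinates to a peak of replicate 1 and replicate 2. No per-sample column was left unused (0).

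Pairs, summits and motif matches were computed in Python 3.11.15 with numpy 2.4.6 and scipy 1.17.1, after the code was tested on simulated data. Starts are those of all protein-coding transcripts. Exact motif matches were sought on both strands. The DRE was searched as TATCGATA, the BEAF-32 string as CGATA (held by each DRE) and Motif 1 as GGTCACAC. The TATA string was TATAAA, the Initiator string was TCAGT, the E-box was CACGTG and the GAGA string was GAGAG. Windows reached 250 bp beyond both starts. At other genes they ran from 250 bp downstream of the canonical start to 250 bp plus the median spacing of 245 bp upstream. In 1 group of 2 biological replicates no test was made. Medians carry order-statistic 95% intervals. Pairs that share a start share peaks.

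The pairs, lists and tests were chosen with earlier results of these data known. Named pairs were the 25 with the highest signal, the top 4 of each 100 bp spacing bin, up to 8 with several summits, 3 on each side of the spacing limit, up to 8 unmarked pairs with the most DREs, up to 4 marked and 2 unmarked pairs of each list, and CG3281/aurA. No summit lay within 5 bp of the reach limit, so the closest on each side were named. Alternatives covered other peak lists, single replicates, a q-value of at most 0.05, 1 peak per pair of replicate peaks, other reaches and spacings, 1 start per gene, no histone pairs and other motif windows.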

Additional observations from a re-analysis of the deposited data

How the results depend on the processing

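The share of pairs marked was 33.0% as reported, 38.2% with the other list from both replicates, 25.8% at a q-value of at most 0.05 (1674 peaks left) and 30.5% with a reach of 100 bp. The share of pair genes marked, 27.9%, was 33.0% with the other list, 21.9% at that q-value, 20.8% and 33.9% with reaches of 100 and 500 bp, and 31.8% and 25.4% with spacings up to 250 and 1000 bp. Summits between the starts, 72.0%, were 80.0% at that q-value, 78.3% with a reach of 100 bp and 75.9% with 1 start per gene. The median signal, 205, was 184 in the other list, 240 at that q-value and 192 over every peak in the windows, an alternative added after seeing the data, and lists are not on 1 scale. The DRE within reach of the summit, 34.3%, was 39.1% with spacings up to 250 bp, and 26.7% and 40.4% with motif windows of 50 and 200 bp. The median spacing of marked pairs, 256 bp, was 107 and 307 bp with spacings up to 250 and 1000 bp, by construction. In the other cases the cause was not tested.

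With each replicate alone, the shares of pairs and of pair genes ran from 28.0% to 32.4% and from 24.2% to 27.8%, summits between the starts from 63.7% to 76.2%, the median signal from 105 to 116, the DRE share from 32.4% to 34.4% and the median spacing from 249 to 250 bp. Every other alternative lay within the 95% interval of the reported value, among them 1 peak per pair of replicate peaks and leaving out histone pairs. No paired analysis was possible because there is 1 group. Without control libraries or read counts, a share of marks says nothing of background, and summits are too coarse to assign between starts under about 100 bp apart.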

Other observations

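Marked shares differed between chromosome arms, from 27.0% on 3L (interval 22.7 to 31.7) and 29.4% on 2L to 35.0% on 2R, 36.7% on 3R (interval 32.6 to 40.9) and 37.0% on X, and none of the 7 pairs on arm 4 was marked. Pairs in which both genes are known only by a CG number were marked in 53 of 273 cases (19.4%, interval 14.9 to 24.6), pairs with 1 such gene in 33.1% and pairs with none in 36.8% (interval 33.7 to 40.0).

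Other close arrangements were counted among genes in no divergent pair, of which equal-length windows were marked in 10.5% of cases (interval 9.93 to 11.1). Same-strand neighbours with starts at most 500 bp apart were marked in 10 of 67 cases (14.9%, interval 7.40 to 25.7), and pairs whose 5′ ends overlap, with the plus-strand start first, in 5 of 29 (17.2%, interval 5.85 to 35.8). Both intervals include 10.5%, and the second also includes the 33.0% of divergent pairs, so at these counts no departure from other genes of no pair was detectable.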
